A study of Caenorhabditis elegans with 4 samples.

Results

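HPL-2 was mapped by chromatin immunoprecipitation and sequencing (ChIP-seq) in *Caenorhabditis elegans*, and its peaks on the right arm of chromosome II are described here. They are the 1356 peaks of the series-level list, out of 23530 on all 6 chromosomes, whose midpoint lay on chromosome II between 10190001 and 14979000 (WormBase WS220), a span of 4.79 Mb. The rule used position alone. The outermost 300 kb of the chromosome was not part of the span. The samples were wild-type N2 worms at the L3 larval stage, grown at 20 °C as a mixed population of males and hermaphrodites, and the labels name no transgene or treatment for any group. The 2 ChIP libraries were made with the rabbit polyclonal antibody SDQ2340, raised against part of HPL-2, and the 2 input libraries hold DNA that was not precipitated. No values of the inputs were analysed here. Chromatin came from whole larvae, so a peak does not tell in which tissue the protein was bound. The same span held 1191 peaks of the replicate 1 list and 1094 of the replicate 2 list.

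HPL-2 belongs to the heterochromatin protein 1 (HP1) family. Proteins of this family bind methylated histone H3 through a chromodomain and associate with one another through a chromoshadow domain, and are known for compacting and silencing chromatin. In *C. elegans* the arms of the autosomes are rich in repeats and in methylation of histone H3 at lysine K9, and lie close to the nuclear periphery, whereas the centres hold more of the genes that are widely expressed. *C. elegans* chromosomes are holocentric and have no single block of centromeric heterochromatin. Most of this kind of chromatin is found on the arms.

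At the borders of the span, the first peak inside ran from 10197153 to 10197321 (score 18.16) and the last peak outside on the inner side from 10174330 to 10175019 (score 60.97). At the outer border the last peak inside ran from 14977832 to 14978088 and the next one outside from 14986690 to 14987057, both with a score of 4.78. The score is the authors' own value for each peak, on a scale that is not stated, and is used only within a list. No read counts come with peak lists, so the depth is unknown, and with 2 replicate lists an exact two-sided test over libraries cannot give a p below 0.5. All values below are therefore descriptions, and the 2 replicates are given side by side. The labels do not say whether the replicates are separate worm cultures, so their spread may be technical only.

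The right arm was more densely occupied than the centre of the chromosome. The series-level list held 283.1 peaks per Mb on the right arm, against 123.1 in the centre (5089001 to 10190000, 628 peaks), a 2.30-fold ratio. Replicate 1 had 248.7 and 106.4 peaks per Mb, a 2.34-fold ratio, and replicate 2 had 228.4 and 47.6, a 4.80-fold ratio. In peak density, though not in bases covered, the replicates thus differed little on the arm (238.6 ± 14.3 peaks per Mb, SD, n = 2). They differed more in the centre (77.0 ± 41.6). The right arm was above the centre in each list, and the size of the ratio depended on the list by more than 1.5 times. The log2 ratio over the replicates was 1.74 ± 0.73 (SD, n = 2).

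Peaks filled 647.2 kb of the right arm in the series-level list, or 13.5% of its bases, against 4.52% of the centre and 9.82% over all chromosomes. The share of the right arm was 11.9% in replicate 1 and 7.47% in replicate 2. The left arm, as a span of the same length that began 300 kb from the left end and reached to 5089000 (1368 peaks), matched it closely in number, with 285.7 peaks per Mb, so that the ratio of right to left was 0.991. Replicate 1 gave 0.975 and replicate 2 gave 0.987. In bases the arms did not keep one order. Peaks covered more of the right arm than of the left in the series-level list (1.07-fold) and in replicate 1 (1.09-fold), and less of it in replicate 2 (0.896-fold).

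Occupancy was uneven along the arm. The arm was divided into 5 equal segments of 957.8 kb. From the inner border outwards, the series-level list held 175.4, 249.5, 326.8, 389.4 and 274.6 peaks per Mb. Density thus rose over the first 4 segments and was lower in the outermost one. Replicate 1 followed the same order, with 157.7, 214.0, 281.9, 339.3 and 250.6 peaks per Mb. Replicate 2 did too, with 101.3, 173.3, 276.7, 353.9 and 237.0. The fourth segment (13063401 to 14021200) had 2.22-fold the density of the first in the series-level list. The ratio was 2.15 in replicate 1 and 3.49 in replicate 2. In the fourth segment 20.98% of bases lay in series-level peaks, against 8.35% in the first. The median width followed, with 252 bp in the first segment and 320 bp in the fourth in the series-level list, and 259 and 316 bp in replicate 1. In replicate 2 the widths were even, at 228 and 224 bp.

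**Figure D1:**
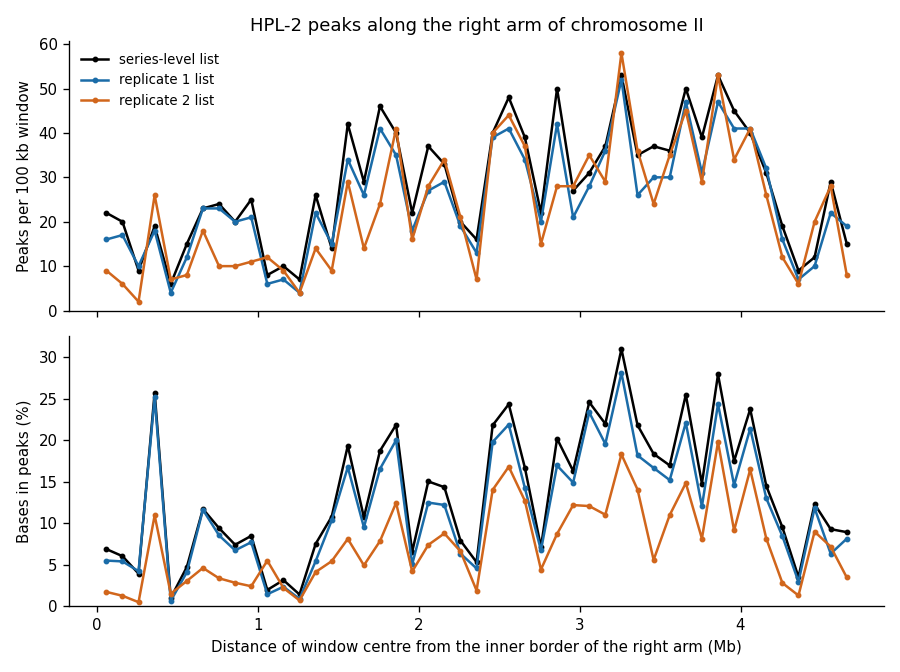
Peaks per 100 kb window (upper panel) and percent of bases in peaks (lower panel) along the right arm of chromosome II, against the distance of the window's centre from the inner border in Mb, for the series-level list and the 2 replicate lists. Each point is 1 of 47 full windows, and the lists mostly rise and fall together, with the highest window of the series-level list at 53 peaks and the lowest at 6. An exception is the window from 11200001 to 11300000, where replicate 2 (12 peaks) did not fall with the other lists (8 series-level peaks, 6 in replicate 1).

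At the scale of 100 kb the arm alternated between filled and thin stretches. Over the 47 full windows the series-level list had a median of 27 peaks, from 6 to 53, and no window was without a peak in any of the 3 lists. The windows with most series-level peaks were those from 13400001 to 13500000 and from 14000001 to 14100000, with 53 peaks each. The first had 52 peaks in replicate 1 and 58 in replicate 2, and 31.0% of its bases in series-level peaks. The second had 47 and 53, and 69.8% of its series-level peaks were overlapped by both replicate lists. The windows that began at 13000001, 13800001 and 12700001 followed, with 50, 50 and 48 peaks. Of these 3, the one at 13000001 had fewer peaks in replicate 2 (28) than in replicate 1 (42).

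Of the 5 windows with fewest series-level peaks, 4 lay in the inner 2 segments. The window from 10600001 to 10700000 had 6 series-level peaks, 4 in replicate 1 and 7 in replicate 2, and 1.00% of its bases in series-level peaks. Those that began at 11400001, 11200001 and 10400001 had 7, 8 and 9. The remaining one, from 14500001 to 14600000, lay in the outer part and had 9 series-level peaks, 7 in replicate 1 and 6 in replicate 2. The window at 11200001 was thin in the series-level list and in replicate 1 (6 peaks, 1.45% of bases) but had 12 peaks and 5.49% of its bases covered in replicate 2. Across the 47 windows the peak numbers of the replicates had a Pearson correlation of 0.87 and a Spearman correlation of 0.86. Neighbouring windows share domains and the lists share the genome's composition, so this describes 1 arm and is given without a p. Replicate 1 had more peaks in 26 windows and replicate 2 in 19.

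Most peaks of the right arm were narrow, with a tail of broad ones. Widths ran from 146 to 10053 bp with a median of 286 bp and an interquartile range of 200 to 495 bp in the series-level list. The median was 286 bp in replicate 1 and 231 bp in replicate 2, so that the width of a peak depended on the library. The left arm had medians of 275, 272 and 252 bp in the 3 lists, and the centre 248.5, 253 and 194 bp. Peaks of 1 kb or more numbered 118 (8.70%, against 6.75% over the whole list) and held 35.6% of the bases in peaks. On the left arm 6.73% of peaks and in the centre 4.94% were that wide. Replicate 1 had 113 such peaks on the right arm (9.49%, against 6.55% over that list and 5.90% on the left arm). Replicate 2 had 38 (3.47%, against 3.42% over that list and 3.79% on the left arm), so the higher share of wide peaks was not seen in that library.

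**Figure D2:**
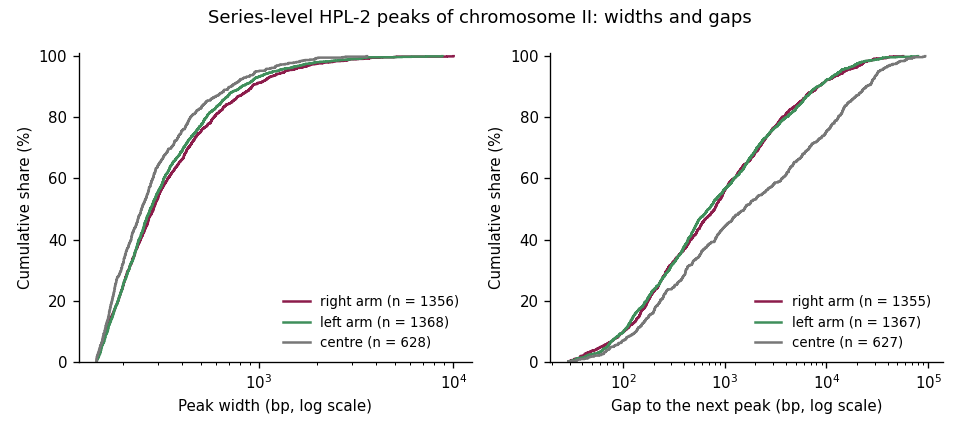
Cumulative share of series-level peaks by width (left) and of gaps between neighbouring peaks by length (right), both in bp on a log axis, for the right arm, left arm and centre of chromosome II. Right-arm peaks had a median width of 286 bp against 248.5 bp in the centre, and right-arm gaps a median of 801 bp against 1564 bp, while the curves of the arms lie close together.

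The broadest peaks stood at few places. The widest ran from 14598888 to 14608940 (10053 bp, score 64.64) and lay at the edge of the thin outer window at 14500001. Replicate 1 called it as a single peak of 10016 bp, and replicate 2 as 6 peaks that filled 61.0% of it. The second ran from 10545137 to 10554422 (9286 bp, score 85.56). It was 1 peak of 9225 bp in replicate 1 and 7 peaks in replicate 2, over 58.6% of its length. The third ran from 13525305 to 13530447 (5143 bp) and the fourth from 13733708 to 13738778 (5071 bp, score 89.62). Each of these had 5 peaks in replicate 2, with 55.9% and 51.9% of the bases covered.

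This difference in shape was seen for most of the broad peaks. The series-level list had 32 peaks of 2 kb or more on the right arm (2.36%, against 1.76% over the whole list), and all 32 were overlapped by both replicate lists. Replicate 1 called 20 of the 32 as a single peak and never as more than 3. Replicate 2 called 3 as a single peak and 29 as 2 or more, with a median of 4 and up to 8. Replicate 2 had more pieces for 26 of the 32 and replicate 1 for 2, the peaks from 14241555 (2 against 1) and from 14835657 (3 against 1). Replicate 1 peaks covered a median of 98.3% of their length (range 74.9 to 100%) and replicate 2 peaks 69.7% (range 30.4 to 99.9%). Coverage was higher in replicate 1 for 31 of the 32. A part of the peak number in replicate 2 is therefore pieces of stretches that the other lists hold as 1 peak, and the replicates were further apart in bases covered (571.6 and 358.0 kb) than in the number of peaks (1191 and 1094). The 32 were chosen by width in the series-level list. That list overlapped 98.7% of the right-arm peaks of replicate 1 and 83.7% of those of replicate 2. A choice made there favours the replicate list closer to it, and its part in the counts over the 32 was not tested.

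**Figure D3:**
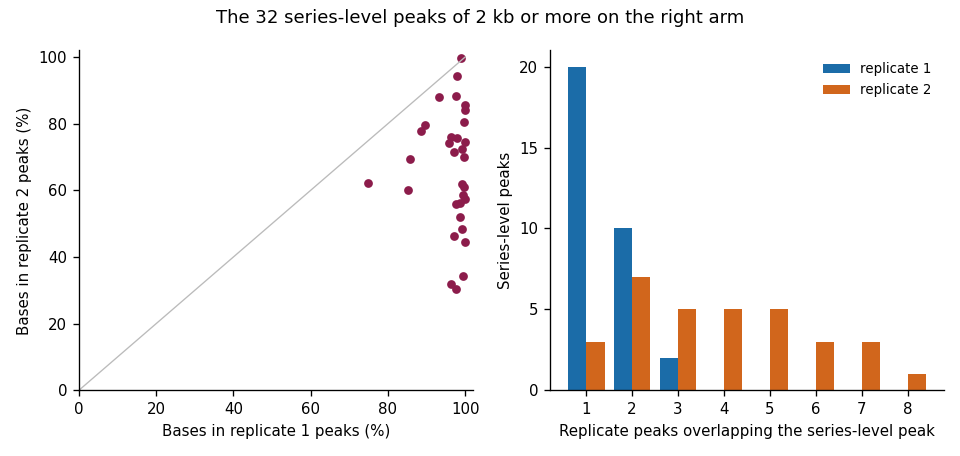
The 32 series-level peaks of 2 kb or more on the right arm. Left, percent of each peak's bases in replicate 1 peaks (x axis) and in replicate 2 peaks (y axis), with the line of equality, below which 31 of the 32 points lie. Right, number of replicate peaks that overlap each one, where replicate 1 has 20 called as 1 peak and replicate 2 has 3.

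Where a peak of replicate 1 and a peak of replicate 2 overlapped each other and no further peak, they lay at nearly the same place. There were 501 such pairs on the right arm, and the median distance between their midpoints was 38.5 bp. Their median width was 325 bp in replicate 1 and 249 bp in replicate 2, and the replicate 1 peak was the wider in 347 pairs (69.3%). Spearman's rho between the scores of the pairs was 0.49 and between their widths 0.49. Within each list, wider peaks had higher scores (rho 0.61 in each of the 3 lists). These values are across peaks, which are not independent of each other, and have no p.

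Gaps between neighbouring peaks were mostly short. The median gap between series-level peaks of the right arm was 801 bp, and it was 834 bp for replicate 1 and 1089 bp for replicate 2. On the left arm it was 695, 658 and 922 bp, and in the centre 1564, 1790 and 9040 bp. Gaps of up to 200 bp made up 23.0% of all gaps of the right arm, near the 22.4% over the whole list. Gaps over 10 kb made up 7.90%, compared with 10.6% over the whole list and 24.7% in the centre. The left arm was close to the right in both, with 23.6% and 7.83%. A neighbour within 1 kb was found for 1037 of 1356 peaks (76.5%, against 73.1% over the whole list). The share was 75.7% in replicate 1 and 68.2% in replicate 2.

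The widest gap was 57.0 kb, from 10595137 to 10652124. It held no replicate 1 peak and 4 replicate 2 peaks of 1018 bp in total, with a top score of 9.93. The gap of 42.1 kb from 11398976 to 11441041 had no peak in any of the lists. The other three of the 5 widest ran from 10452434 to 10498700 (46.3 kb), from 11637493 to 11679837 (42.3 kb) and from 10305066 to 10346011 (40.9 kb). Replicate 2 had no peak in these, and replicate 1 had from 7 to 262 bp of peaks in each. All 5 lay within the inner segments, below 11.7 Mb. A gap shows only that no peak passed a threshold that is not stated.

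Peaks joined over gaps of up to 1 kb formed 598 regions on the right arm, and 319 of them were single peaks (53.3%). Another 207 held 2 to 4 peaks and 72 held 5 or more. The regions of 5 or more peaks contained 497 peaks, or 36.7%, against 37.1% over the whole list, so this share was near that of the genome. The left arm had a higher share, 41.7%, and a higher share of single-peak regions as well, 60.3%. The order was the same in replicate 1, with 31.7% of peaks on the right arm and 42.5% on the left, and in replicate 2, with 25.5% and 36.6%. In the series-level list the right arm had more regions of 5 or more peaks than the left (72 against 62). These held fewer peaks (497 against 571), so its large groups were smaller on average. Replicate 1 had 55 and 52 such regions, with 377 and 519 peaks. Replicate 2 had 37 and 48, with 279 and 406 peaks, so the order of the arms in the number of regions depended on the list. The difference in the share of peaks was larger than the spread between replicates on either arm (28.6 ± 4.35% and 39.6 ± 4.15%, SD, n = 2), and was not tested.

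Peaks in large groups differed from single ones in width and in replicate overlap. In regions of 5 or more peaks the median width was 380 bp, the median score 16.36, and 267 of 497 peaks (53.7%) were overlapped by both replicate lists. The single peaks had a median width of 232 bp and a median score of 11.61, and 126 of 319 (39.5%) were overlapped by both. A wider peak meets an overlap rule of 1 bp more easily, and the part of width in this was not tested. Regions of 5 kb or more numbered 43, against 35 on the left arm. Replicate 1 had 37 and 34 and replicate 2 had 14 and 26, so the order of the arms in wide regions depended on the list. Over all regions, the series-level list had a median width of 594 bp on the right arm and 391 bp on the left. For replicate 1 the medians were 580 and 428 bp, and for replicate 2 they were 332 and 345 bp. The 43 regions held 329 peaks (24.3%) and 39.9% of the bases in peaks on the arm. Each had at least 1 peak in both replicate lists, a rule that a wide region meets easily. Replicate 2 peaks filled from 3.15 to 71.8% of a region, and replicate 1 peaks from 35.2 to 97.8%. The share of a region's length in peaks had a median of 66.5% for series-level peaks, 60.4% for replicate 1 and 35.5% for replicate 2. It was higher in replicate 1 than in replicate 2 in 43 of 43. These regions were chosen in the series-level list, which is closer to replicate 1, and the part of that choice was not tested.

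The widest region ran from 13276408 to 13299431 (23.0 kb), and 85.9% of it lay in its 17 series-level peaks. Replicate 1 had 16 peaks there over 83.0% of the length, and replicate 2 had 26 peaks over 44.8%. The peaks within it ranged from 149 to 4314 bp, were separated by gaps of at most 538 bp, and had scores from 2.92 to 102.28. It thus combined peaks at the top of the score scale with some near its bottom. Replicate lists both overlapped 10 of the 17.

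The second region, from 10541961 to 10559484 (17.5 kb), was built of fewer peaks. It consisted of only 3 peaks of 3146 bp or more that filled 98.95% of it, with gaps of at most 154 bp. Replicate 1 had 4 peaks over 97.8% of the length and replicate 2 had 19 peaks over 52.2%. It lay in the otherwise thin inner segment. Its window, from 10500001 to 10600000, had 25.7% of its bases in series-level peaks, against 3.93% in the window before it and 1.00% in the one after. Replicate 1 gave 25.2%, 4.23% and 0.650% for these windows, and replicate 2 gave 10.9%, 0.493% and 1.51%.

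The third region, from 13955208 to 13968502 (13.3 kb), was an open chain of 12 peaks. They filled 47.1% of it and 6 of them were overlapped by both replicate lists. Replicate 1 had 11 peaks (39.0% of the length) and replicate 2 had 7 (23.7%). The fourth, from 14598068 to 14610816 (12.7 kb), was built around the 10053 bp peak and had 91.3% of its length in 5 peaks. Replicate 1 covered 90.6% of it and replicate 2 50.9%. The fifth, from 13817637 to 13829761 (12.1 kb), held 9 peaks with a median gap of 777 bp, and both replicate lists overlapped 8 of the 9. Series-level peaks covered 56.1% of it, replicate 1 peaks 53.7% and replicate 2 peaks 19.7%. In the series-level list and replicate 1 the 5 widest regions therefore fell into nearly continuous blocks (from 13276408, 10541961 and 14598068) and chains of separate peaks (from 13955208 and 13817637). In replicate 2 the blocks were not continuous. They were filled to 44.8%, 52.2% and 50.9% by 26, 19 and 8 peaks, against 23.7% and 19.7% for the chains.

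**Figure D4:**
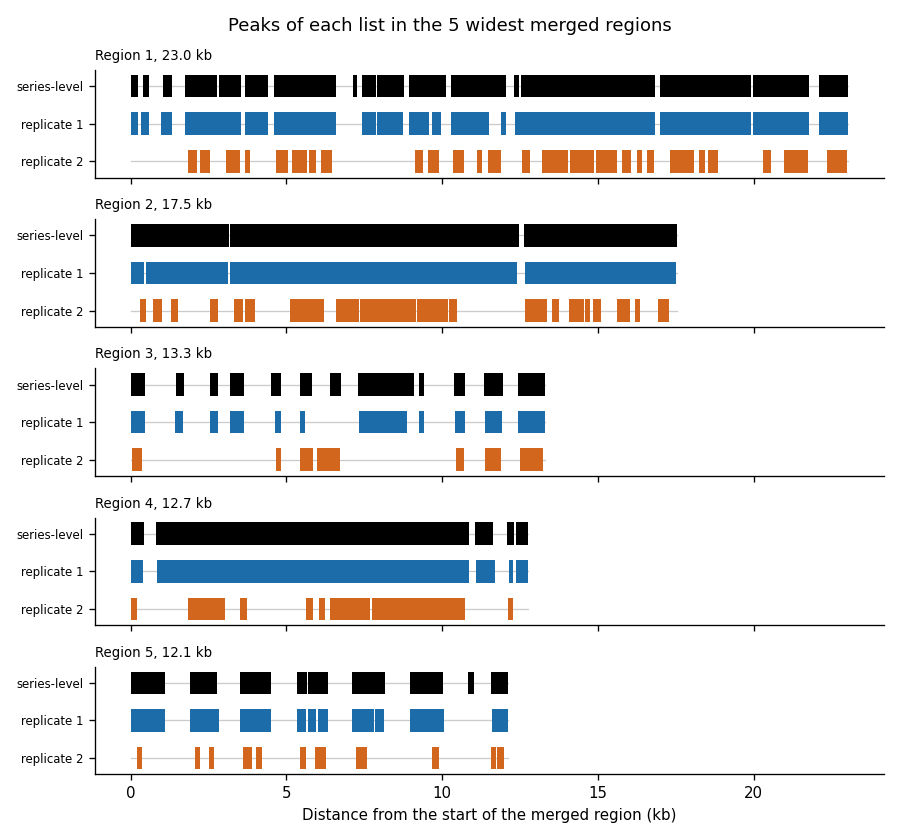
Peaks of the series-level, replicate 1 and replicate 2 lists in the 5 widest merged regions of the right arm, drawn to scale from the start of each region in kb. Regions 1, 2 and 4 are filled to 85.9%, 98.95% and 91.3% by series-level peaks and regions 3 and 5 to 47.1% and 56.1%, and replicate 2 covers less of each region than replicate 1.

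Both replicate lists overlapped 624 of the 1356 right-arm peaks by at least 1 bp (46.0%, against 43.5% over the whole list). How the series-level list was made is not stated, and if it was made from these libraries the overlap is no independent support. A further 515 (38.0%, against 39.1%) were overlapped by replicate 1 only, 108 (7.96%, against 8.16%) by replicate 2 only and 109 (8.04%, against 9.23%) by neither. The right arm was therefore close to the whole list in all 4 classes. In the centre of the chromosome 24.8% were overlapped by both lists and 58.6% by replicate 1 only, and on the left arm 52.2% and 31.0%. Right-arm peaks overlapped by both had a median width of 457 bp and a median score of 24.94. Those overlapped by replicate 1 only had 239 bp and 10.23, by replicate 2 only 190.5 bp and 6.33, and by neither 160 bp and 4.78.

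**Figure D5:**
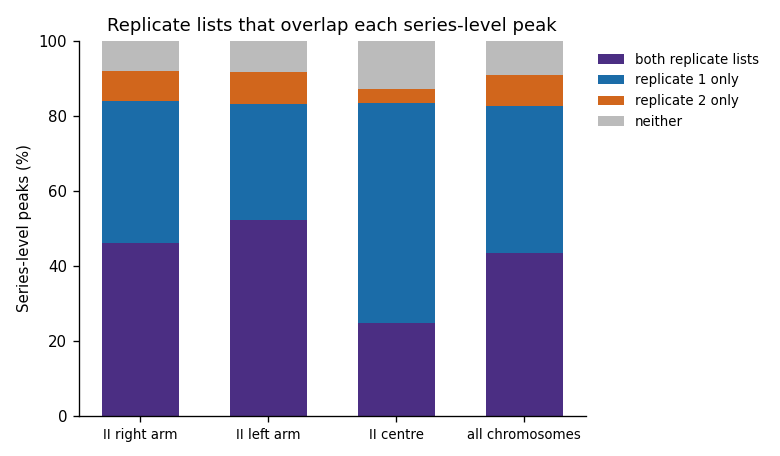
Percent of series-level peaks that are overlapped by both replicate lists, by 1 of them or by neither, for the right arm, left arm and centre of chromosome II and for all chromosomes. The share overlapped by both is 46.0% on the right arm, 52.2% on the left arm, 24.8% in the centre and 43.5% over all chromosomes.

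Seen from the replicates, 645 of 1191 right-arm peaks of replicate 1 overlapped a replicate 2 peak (54.2%, against 52.2% over that list). In the other direction 799 of 1094 did (73.0%, against 74.1%). The series-level list overlapped 1175 right-arm peaks of replicate 1 (98.7%, against 98.3% over that list) and 916 of replicate 2 (83.7%, against 85.6%). Overlap followed the score. In the lowest 25% of the whole list's scores, 25 of 313 right-arm peaks were overlapped by both replicate lists (7.99%, against 7.39% over the whole list). In the highest 25% it was 287 of 327 (87.8%, against 86.3%), so the right arm was near the whole list at both ends. Along the arm, the share overlapped by both was 31.5% in the innermost segment, 41.0% in the second, 49.5% in the third, 50.4% in the fourth and 49.4% in the outermost. The density of both replicate lists was lowest in the innermost segment, and its part in this was not tested.

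The right arm had fewer high-scoring peaks than the left. Of its peaks, 327 were in the top 25% of scores of the series-level list (24.1%, against 25% over the list by construction), and on the left arm 465 (34.0%). In replicate 1 the shares were 23.6% on the right arm and 36.0% on the left, against 25.2% over that list, and in replicate 2 they were 22.2% and 34.1%, against 25.4%. The replicate means were 22.9 ± 0.98% and 35.0 ± 1.30% (SD, n = 2), so the difference between the arms was larger than the spread between the lists. The median score of right-arm peaks was 13.41 for the series-level list, 10.99 for replicate 1 and 9.99 for replicate 2. On the left arm it was 15.94, 13.10 and 12.44. The arms were thus alike in the number of peaks per Mb and differed in scores and in the number of peaks per large group.

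The highest-scoring right-arm peaks overlapped by both replicate lists included 4 with the top score of the list, 102.28, which the left arm also reached. The widest of these ran from 13288922 to 13293235 (4314 bp), within the widest merged region. It overlapped 1 replicate 1 peak with that list's top score (82.46) and 7 replicate 2 peaks with scores of up to 241.85, the highest on the arm in that list. Another ran from 14241555 to 14243960 (2406 bp) and the next from 14235763 to 14237750 (1988 bp). Both lay in a region of 11 peaks, and between them was the next highest, from 14237854 to 14238741 (score 101.18). The last of the 4, from 14762314 to 14763013 (700 bp), stood alone, with the nearest peak 1042 bp away. Replicate 1 gave it a score of 79.37 and replicate 2 one of 205.31.

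The other 5 of the 10 named peaks were of both kinds too. The peak from 12919150 to 12919668 (519 bp, score 99.68) was isolated, with 8130 bp to the nearest peak, and the peak from 12778256 to 12778824 (569 bp, score 98.96) stood alone as well. Each was a single peak in both replicate lists. The peaks from 12670330 to 12672729 (2400 bp), from 12877603 to 12879708 (2106 bp) and from 14045219 to 14046789 (1571 bp) belonged to regions of 12, 8 and 7 peaks. Replicate 2 had 4, 5 and 1 peaks in them. All 10 lay beyond 12.6 Mb, in the outer 3 of the 5 segments, and 3 of them were narrower than 1 kb and had no neighbour within 1 kb. In replicate 2 the highest score under each of the 10 ran from 39.31 to 241.85.

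No gene was assigned to a peak, because the gene table used here is on the assembly WBcel235 and the peaks are on WS220. That table (RefSeq) gives names and gene order only. The last 1149 of its 3446 protein-coding genes on chromosome II were taken as the outer right part of the gene order, which is not the same set as the genes of the span. Among 73 families set by symbol, 10 had 5 or more genes there. The sre family of chemoreceptors had 28 of its 33 genes on the chromosome in this part, including a run of 7 direct neighbours from sre-51 to sre-52. Glutathione S-transferases (gst), which conjugate glutathione to toxic compounds, had 19 of 25, with a run of 9 from gst-20 to gst-18. Histone genes (his) had 14 of 14, with 13 in a row from his-16 to his-42. Cytochrome P450 genes (cyp) had 10 of 12, and 7 of them, from cyp-13A2 to cyp-13A8, were direct neighbours. The chemoreceptor families sra and srh had 12 of 23 and 11 of 27, with runs of 7 and 6. C-type lectins (clec) had 16 of 48, with a run of 5 from clec-62 to clec-66, collagens (col) 9 of 24, homeobox genes (ceh) 5 of 13 and neuropeptide-like genes (nlp) 5 of 11. The share of all protein-coding genes in this part is 1149 of 3446. Of 23 genes listed as linked to HPL-2, without regard to chromosome, mes-2, nrde-2 and lem-2 were in this part. They encode, in that order, a histone H3 lysine K27 methyltransferase, a nuclear RNA interference factor and an inner nuclear membrane protein. Whether HPL-2 peaks lie on any of these genes was not analysed here.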

How the data were processed

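The data analysed were 3 deposited peak lists, 1 for each HPL-2 ChIP library and 1 for the series. Samples were grouped by their titles. Per the labels' protocols, frozen, ground worms were fixed with EGS and formaldehyde, and libraries were amplified and size-selected. Per the file headers, the peaks are placed on WormBase WS220, and MACS is entered as their source. The submitters' processing notes name BWA and ce10. The sources used here do not give versions, the peak threshold, the control or how the series-level list was made. The score of a peak is the authors' deposited value on an unstated scale, used to rank or filter within a list. Read depth is unknown.

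Peaks were taken as deposited, counted from 1, and assigned by midpoint. Overlap meant 1 bp or more, and regions were joined over gaps of up to 1 kb. Python 3.11.15, pandas 2.3.3 and numpy 2.4.6 were used, and the interval code was tested on simulated data. No test was made. The members, gene families and named regions were chosen with earlier results of these data known. The regions named were the 10 highest-scoring peaks in both replicate lists, with ties set by width, then the 5 widest merged regions and gaps, and the 5 windows of 100 kb with most and with fewest peaks. The widest single peaks were added after their values were seen. Genes under peaks and base composition were planned and not analysed here, because neither an annotation nor a genome of WS220 was used. Alternatives covered the list, score threshold, overlap, merging gap, unit of density and outer border.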

Additional observations from a re-analysis of the deposited data

How the results depend on the processing

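Of 13 alternative settings over 3 results, 5 moved a value by less than the SD between the replicate lists and 8 moved it by more. For the share overlapped by both lists, that SD belongs to another measure. It is the share of each replicate list's right-arm peaks that overlap the other list (54.2% and 73.0%). For the log2 ratio and the share in regions, the SD was computed from the single-list values. The settings with a single replicate list were therefore not judged independently of it. A change of direction was possible only for the log2 ratio, where 0 settings gave one. The other results are percentages, which have no direction to change. The log2 ratio of peak density between the right arm and the centre was 1.20, and ran from 1.22 with replicate 1 alone to 2.26 with replicate 2 alone. It was 1.51 for peaks in the upper part of the scores (the median or more), 1.58 in base pairs, 0.86 in merged regions and 1.23 with the span extended to the chromosome end. The share of peaks overlapped by both replicate lists was 46.0%, and became 28.4% with a reciprocal overlap of 50% and 72.2% for that upper part of the scores. The share of peaks in regions of 5 or more was 36.7%. It became 18.3% with joining over 500 bp, 55.1% over 2 kb, 14.3% for the upper part of the scores, and 25.5 to 31.7% with a single replicate list. A shorter joining distance or fewer peaks gives smaller groups by construction, so this share is tied to its setting. No paired analysis was possible because ChIP and input, the 2 groups whose replicate numbers match, could not be compared with no values of the inputs analysed. Ratios between spans were taken within each ChIP list. The alternatives for genes under peaks and base composition were not run. With no read counts, each result covers what passed an unstated peak threshold.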

Other observations

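Replicate 2 had peaks on the right arm that the other lists lacked. Of its 1094 peaks, 178 (16.3%) were overlapped by no series-level peak, close to the 14.4% over that whole list. In replicate 1 it was 16 of 1191 (1.34%, with 1.71% over that list). These 178 had a median width of 177 bp and a median score of 6.43, against a median score of 11.29 for the replicate 2 peaks that the series-level list overlaps. The 16 of replicate 1 had a median score of 3.15. None of the 178 overlapped a replicate 1 peak. The run with most such replicate 2 peaks lay from 11211238 to 11216625 (5.39 kb), with 7 peaks of median score 7.28 and no peak of the other lists between them. It accounts for 7 of the 12 replicate 2 peaks in the window from 11200001 to 11300000, where the series-level list had 8. Another run, of 4 peaks from 10635747 to 10648485, lay inside the widest gap of the series-level list. Both runs were picked with their values known.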
